A study of Homo sapiens with 8 samples.

Results

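The data show how HCC1937 cells that carry exogenous wild-type BRCA1 changed their gene expression when they were exposed to COH29. They comprise 2 arrays of cells given COH29 at 10 µM for 24 h and 2 arrays of the same line without the drug, so 4 of the 8 arrays of the series. HCC1937 is a human breast cancer line whose own BRCA1 is truncated. The line with the added gene is titled HCC1937BRCA1 and labelled HCC1937+BRCA1 with the BRCA1 status WT, and the 4 remaining arrays are of HCC1937 itself, labelled BRCA1 deficient, with 2 arrays given the same drug exposure and 2 without it. All cells grew in RPMI medium with 10% serum. The change was taken as COH29 minus control on the deposited log2 intensities, for each of 18417 genes, each read by 1 probe set. The labels of the control arrays name no vehicle and no hours, so drug, vehicle and time in culture cannot be told apart. They do not say how the BRCA1 gene was introduced or whether the line is 1 clone, nor whether each array is a culture of its own, so the spread on which p-values rest here is that between these arrays, and it may be technical.

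COH29 inhibits ribonucleotide reductase, the enzyme that turns ribonucleotides into the deoxynucleotides of DNA. A shortage of deoxynucleotides slows replication forks and activates the ATR and CHK1 checkpoint, which holds cells back from mitosis. BRCA1 acts with partner proteins in homologous recombination and in the protection of stalled forks, and restoring it to a BRCA1-deficient line is a common way to ask how a drug response depends on it. Cells also answer shortage of amino acids, unfolded protein or heme stress through phosphorylation of the translation factor eIF2, which favours translation of ATF4, a transcription factor that turns on genes of amino acid supply.

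The arrays of a group were alike. Across genes the 2 control arrays and the 2 COH29 arrays correlated with r between 0.9963 and 0.9968 within a group, and with r between 0.9763 and 0.9804 between the groups. Standard errors of the log2 changes had a median of 0.103. Of 5 epithelial markers, KRT8 was at 13.30, KRT18 at 13.02, EPCAM at 12.23, CDH1 at 12.23 and KRT19 at 7.75 on the control arrays (mean log2 intensity), so KRT19 lay near the middle of all genes. Leukocyte markers lay between 4.01 and 6.84, and 0 of 6 changed. Of 7 fibroblast markers 1 was called higher, and the mean over them was 5.74 to 5.75 on control arrays and 5.90 to 5.92 with COH29. Of 5 endothelial markers 1 was called higher, TEK (0.37), and 2 lower, PECAM1 (-1.48) and CDH5 (-0.50). PECAM1 was at 8.11 on the control arrays, above KRT19. Of 4 basal epithelial markers 1 was higher, KRT14 (0.35). Of 6 luminal and receptor markers 2 were higher, XBP1 (1.24) and GATA3 (0.32), and 2 lower, FOXA1 (-0.76) and ESR1 (-0.57).

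At an adjusted p under 0.05 in limma (Benjamini-Hochberg over all genes), 6195 genes were called, which is 33.6% of those tested. Of these, 2498 were higher with COH29 (13.6% of genes tested) and 3697 were lower (20.1%). The arrays of the 2 groups did not overlap for any called gene. Of all genes, called or not, 35.4% did not overlap with COH29 higher and 33.0% with COH29 lower. Most changes were moderate: 1110 of the called genes rose and 2044 fell by at least 0.5 on the log2 scale, 285 and 390 by at least 1 (2-fold), 35 and 12 by at least 2, and 7 and 0 by at least 3. The balance of directions depended on the scaling: higher genes made up 40.3% of the calls and, with each array shifted to one median, 54.4%, while the median change of all genes went from 0.04 to 0.106. Leaving out 1 of the line's arrays left 4171 calls (without control replicate 1), 4541 (COH29 replicate 2), 4868 (COH29 replicate 1) or 5230 (control replicate 2).

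The calls were not spread evenly over the range of expression. With genes ranked by mean level and cut into 4 groups of equal size, 7.04% of the lowest group (2.46 to 6.25) were higher and 3.02% lower. In the next group, up to 7.90, the shares were 12.9% and 14.6%. Lower calls outnumbered higher calls in the third group, up to 9.52, with 33.7% against 17.3%, and in the top group with 29.0% against 16.9%. The median change was 0.11 and 0.12 in the 2 lower groups and -0.11 and -0.09 in the 2 upper ones.

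CHAC1 had the largest change of any gene. It encodes an enzyme that degrades glutathione and is a target of ATF4. Its arrays read 7.89 and 7.85 without the drug and 12.33 and 12.37 with it, a rise of 4.47 ± 0.08 (SE) on the log2 scale (limma adjusted p = 2.56e-08). ULBP1, whose product is bound by NKG2D, a receptor of natural killer cells, went from 7.76 and 7.95 to 11.61 and 12.07, a rise of 3.98 ± 0.20. STC2, a secreted glycoprotein gene induced by hypoxia and by ATF4, went from 7.28 on both control arrays to 10.75 and 10.82. In each of these genes the groups lay more than 3 log2 units apart, while the arrays of a group differed by less than 0.5. Other large rises were in SERPINI1 (3.27), which encodes neuroserpin, TENT5C (2.98), a poly(A) polymerase gene, KLHL24 (2.83) and STARD5 (2.45), a lipid transfer protein gene.

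The largest fall in this fit was in YAE1, a gene for an assembly factor of an iron-sulfur protein of the ribosome recycling machinery. Its arrays went from 11.25 and 11.01 to 8.59 and 8.24, a change of -2.72 ± 0.13 (limma adjusted p = 4.17e-06). YAE1 has 2 probe sets, and with their mean its change was -1.24, smaller than the -2.68 of CXCL1. METTL4, a methyltransferase gene, went from 10.36 and 10.29 to 7.80 and 7.70, a change of -2.58 ± 0.09. E2F5, which encodes a repressive E2F partner of the pocket proteins, went from 8.54 and 8.08 to 5.92 and 5.86. The control arrays of E2F5 were farther apart than those of METTL4, and its change was -2.42 ± 0.22, with the groups well apart. MKKS (-2.27), a chaperonin-like gene, NAPEPLD (-2.25), a phospholipase gene, C18orf54 (-2.22), RNF214 (-2.07), NHLRC2 (-1.99) and C9orf152 (-1.92) were among the other 20 largest falls.

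**Figure D1:**
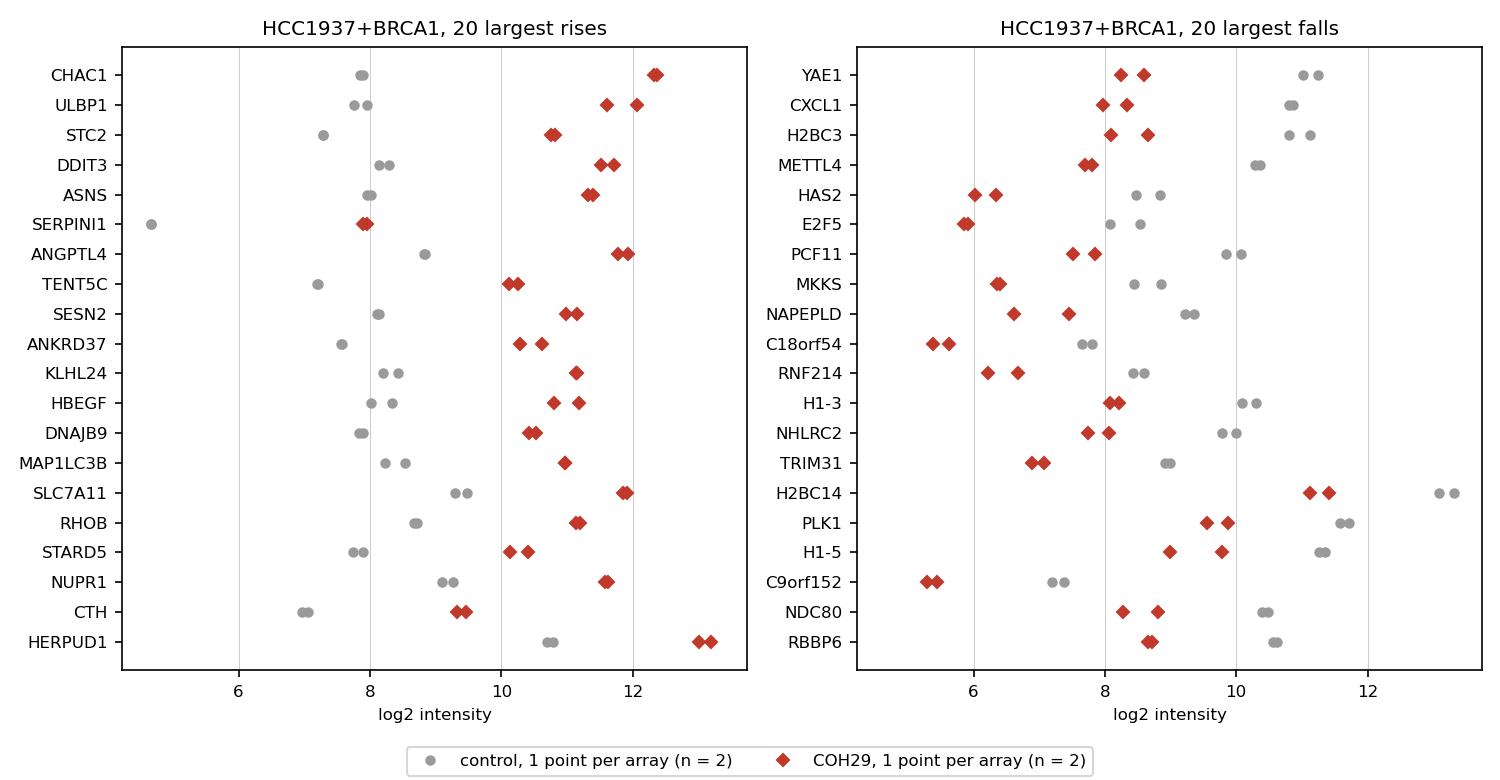
Log2 intensity of the 20 genes with the largest rise and the 20 with the largest fall among called genes in HCC1937+BRCA1. Grey circles are the 2 control arrays and red diamonds the 2 COH29 arrays of each gene. CHAC1 lies at 7.89 and 7.85 without the drug and at 12.33 and 12.37 with it. YAE1 lies at 11.25 and 11.01 and then at 8.59 and 8.24. Genes were chosen among those whose groups do not overlap, so the groups are apart in every gene shown.

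The regulators of the eIF2 pathway split into a part that rose and a part that fell. Of 21 measured members 11 were higher and 7 lower (background 13.6% and 20.1%), with a median change of 0.55. The transcription factors and feedback genes made up most of the higher group. DDIT3 (CHOP), a transcription factor of prolonged stress, went from 8.29 and 8.14 to 11.52 and 11.72, a rise of 3.40 ± 0.11 (limma adjusted p = 6.97e-07). NUPR1 rose by 2.42, TRIB3, a pseudokinase gene that restrains ATF4, by 2.09, PPP1R15A (GADD34), which directs the eIF2 phosphatase, by 1.96, and ATF3 by 1.77. ATF4 itself rose by 0.95 ± 0.10, from 10.97 and 10.77 to 11.80 and 11.83. Among the 4 kinases of eIF2, the gene of the endoplasmic reticulum sensor EIF2AK3 (PERK) rose by 1.11, that of the amino acid sensor EIF2AK4 (GCN2) had a change of -0.80 and that of the RNA sensor EIF2AK2 (PKR) of -0.49, while the heme sensor gene EIF2AK1 had -0.12 and was not called. EIF2B5, a subunit of the exchange factor that phosphorylated eIF2 blocks, had a change of -1.06, and ATF5 one of -0.55. Both of the latter were called lower.

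Genes that make and import amino acids had more higher than lower calls. In amino acid and one-carbon synthesis 8 of 17 were higher and 3 lower, with a median of 0.36. These are 47.1% and 17.6%, against 13.6% and 20.1% of all genes, so the lower share lay near the background. ASNS, asparagine synthetase, went from 7.95 and 8.02 to 11.32 and 11.40, a rise of 3.38 ± 0.09 (limma adjusted p = 2.86e-07). CTH, which makes cysteine from cystathionine, rose by 2.38, and ALDH1L2, a mitochondrial folate enzyme gene, by 2.36. MTHFD2, of the same mitochondrial folate path, rose by 1.57. The serine synthesis genes PSAT1, PHGDH and PSPH rose by 1.38, 1.15 and 0.90. The cytosolic SHMT1 (-0.53) and the mitochondrial aspartate aminotransferase gene GOT2 (-0.41) were lower. Proline synthesis stood apart, with PYCR1 at -0.13, ALDH18A1 at -0.14 and PYCR3 at -0.18, none of them called.

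Of 24 amino acid transporter genes, 10 were higher and 5 lower, with a median of 0.15. The shares were 41.7% and 20.8%, the latter near the background of 20.1%. SLC7A11, the cystine and glutamate exchanger, went from 9.48 and 9.30 to 11.86 and 11.92, a rise of 2.50 ± 0.09 (limma adjusted p = 1.06e-06). Its partner chain SLC3A2 rose by 0.64. The neutral amino acid carriers SLC1A4 and SLC1A5 rose by 2.01 and 1.32. Lower were SLC7A6 (-0.72), SLC36A4 (-0.63), SLC1A3 (-0.61) and SLC36A1 (-0.55).

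The enzymes that load amino acids onto tRNA differed by compartment. Of 19 cytosolic aminoacyl-tRNA synthetases 8 were higher and 5 lower (median 0.19), led by GARS1 (1.05), CARS1 (0.92) and AARS1 (0.89), with VARS1 (-0.54), FARSA (-0.48) and RARS1 (-0.44) lower. The 5 lower became 3 without any 1 of the 4 arrays of the line, with arrays shifted to one median, after cyclic loess, or with the 4 arrays alone. Of 16 mitochondrial ones 1 was higher and 9 lower (median -0.40). TARS2 had a change of -0.91 ± 0.08, going from 8.79 on both control arrays to 7.87 and 7.91, and LARS2 one of -0.90. HARS2 was the 1 that rose, by 0.43.

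Promoter sequences of 14239 of the 18417 genes were taken from RefSeq (GRCh38.p14), as the 250 bases before the first start site listed for a gene. ATF4 and its partners bind elements with the core TGATGNAA, sought here on both strands. It was present in 9 of the 66 promoters available for the genes of eIF2 regulation, amino acid and one-carbon synthesis, amino acid transport and cytosolic aminoacyl-tRNA synthetases together (13.6%), and in 312 of all 14239 (2.19%). Among the genes called at least 2-fold higher it was present in 5 of 232 (2.16%). The promoters of the gene with the largest rise and of the leading members of these lists are shown, with the core in capitals. CHAC1 lies at chr15:40953221-40953470 on the forward strand, DDIT3 at chr12:57520515-57520764 on the reverse strand, ASNS at chr7:97872409-97872658 on the reverse strand and CTH at chr1:70411018-70411267 on the forward strand, each read 5′ to 3′ towards the start site.
CHAC1: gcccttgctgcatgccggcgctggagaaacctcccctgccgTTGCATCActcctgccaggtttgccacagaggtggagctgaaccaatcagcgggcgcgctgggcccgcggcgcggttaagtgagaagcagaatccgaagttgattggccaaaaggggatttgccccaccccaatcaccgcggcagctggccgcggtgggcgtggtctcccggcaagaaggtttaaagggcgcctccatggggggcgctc
DDIT3: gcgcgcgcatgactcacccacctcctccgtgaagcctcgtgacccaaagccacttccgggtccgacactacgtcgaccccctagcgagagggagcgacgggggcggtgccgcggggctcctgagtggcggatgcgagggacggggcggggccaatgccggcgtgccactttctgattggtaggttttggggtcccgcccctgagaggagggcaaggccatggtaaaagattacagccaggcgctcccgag
ASNS: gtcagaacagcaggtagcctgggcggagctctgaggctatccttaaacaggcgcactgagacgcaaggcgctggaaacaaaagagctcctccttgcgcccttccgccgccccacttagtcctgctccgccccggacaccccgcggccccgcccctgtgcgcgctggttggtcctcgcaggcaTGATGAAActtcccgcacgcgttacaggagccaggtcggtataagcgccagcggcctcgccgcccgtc
CTH: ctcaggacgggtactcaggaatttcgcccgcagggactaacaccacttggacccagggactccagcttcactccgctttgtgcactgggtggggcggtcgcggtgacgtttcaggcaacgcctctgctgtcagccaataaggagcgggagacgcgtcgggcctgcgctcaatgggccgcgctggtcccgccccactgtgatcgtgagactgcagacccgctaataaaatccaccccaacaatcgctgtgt
The core begins at position -209 of CHAC1, where it is read on the opposite strand, and at position -68 of ASNS. The letters TGATGNAA do not occur in these windows of DDIT3 and CTH.

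Genes of glutathione metabolism and targets of NRF2, a transcription factor of the oxidative stress response, included CHAC1 and 8 other higher genes among 20, with 2 lower and a median of 0.14. HMOX1, heme oxygenase, went from 8.51 and 8.60 to 10.29 and 10.43, a rise of 1.81 ± 0.09 (limma adjusted p = 4.25e-06). OSGIN1 rose by 1.05, and GCLC and GCLM, the subunits of the first enzyme of glutathione synthesis, by 0.94 and 0.54. NQO1 (0.15) and the thioredoxin gene TXN (-0.08) were not called, and GPX2 (-0.90) and the glutathione reductase gene GSR (-0.39) were lower. Inhibitors of mTORC1, the kinase complex that senses amino acids, were among the strongest rises of their list, in which 8 of 22 were higher and 4 lower (2 without COH29 replicate 1 or control replicate 2). SESN2, a leucine sensor, went from 8.11 and 8.13 to 10.98 and 11.16, a rise of 2.95 ± 0.09. DDIT4 (REDD1) rose by 1.68, SESN3 by 1.25 and SESN1 by 0.98. RPTOR (-0.42), a subunit of the complex, was lower. So were 2 other inhibitor genes, NPRL3 (-0.41) and AKT1S1 (-0.57 to -0.32 over the alternatives). RRAGC, a gene of mTORC1 activation, was higher (0.60 to 0.78 over the alternatives), so the calls did not sort by role. TSC1 (0.09) and TSC2 (-0.02) were not called.

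Of 31 genes for chaperones and protein degradation at the endoplasmic reticulum 17 were higher and 0 lower (median 0.27). DNAJB9, a co-chaperone of the sensor IRE1, went from 7.84 and 7.89 to 10.53 and 10.42, a rise of 2.61 ± 0.09 (limma adjusted p = 9.49e-07). HERPUD1, of the degradation complex, rose by 2.36, the IRE1 gene ERN1 by 1.34, XBP1, whose mRNA IRE1 splices, by 1.24, and the chaperone HSPA5 (BiP) by 1.06. PDIA6 (0.01), CANX (0.08), SDF2L1 (0.07) and the third sensor gene ATF6 (0.04) were not called. Heat shock proteins of the cytosol and mitochondria had 8 of 22 higher (5 without control replicate 2) and 4 lower. That list also holds HSPA13, whose product lies at the endoplasmic reticulum and which had its largest rise, 1.54. DNAJB4 rose by 1.02 and BAG3 by 0.80. HSPA8 (0.04), HSPD1 (-0.02), HSP90AB1 (-0.08) and HSF1 (-0.15), the factor that drives heat shock genes, were not called. The mitochondrial HSPE1 (-0.46) and TRAP1 (-0.39) were lower.

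Genes induced by low oxygen had the largest median of all lists, 0.83, with 20 of 28 higher and 2 lower (1 without COH29 replicate 2 or control replicate 1). The background shares are 13.6% and 20.1%. After STC2, ANGPTL4, an inhibitor of lipoprotein lipase, had the largest rise, from 8.84 and 8.83 to 11.78 and 11.93 (3.02 ± 0.10, limma adjusted p = 6.97e-07). ANKRD37 rose by 2.88 ± 0.19 from 7.58 and 7.56 to 10.28 and 10.62. The vascular peptide gene ADM rose by 2.23, NDRG1 by 2.12, the histone demethylase gene KDM3A by 2.01, STC1 by 1.85, VEGFA by 1.79 and BNIP3, a mitophagy receptor gene, by 1.74. The transcripts of the oxygen-regulated factors did not rise. HIF1A had a change of -0.42 ± 0.09 (limma adjusted p = 0.00754), called lower except without COH29 replicate 2 (0.0539) or control replicate 1 (0.0645), EPAS1 (HIF-2α) one of 0.09 and the partner ARNT one of -0.27, neither of them called. CA12 (0.04) and VHL (0.09) were not called either.

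Glucose uptake and glycolysis had 11 of 24 members higher (7 without COH29 replicate 2 or control replicate 2) and 1 lower, PFKM, with a median of 0.16. The regulatory kinase genes led, with PFKFB4 going from 7.20 and 7.09 to 9.23 and 9.20 (2.07 ± 0.08, limma adjusted p = 1.34e-06) and PFKFB3 up by 1.84. ALDOC rose by 1.55, HK2 by 1.54, ENO2 by 1.06, PDK1, which blocks pyruvate entry into mitochondria, by 0.99, and the glucose transporter gene SLC2A1 by 0.97. The core enzymes GAPDH (0.09), ENO1 (-0.02), TPI1 (0.09) and PKM (0.13) were not called. PFKM lost its call (change -0.38) without any 1 of COH29 replicate 1, control replicate 1 or control replicate 2.

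Among the forms that hypoxia-inducible factors bind are GCGTG and ACGTG, of which only ACGTG was sought. This motif, on both strands, was in 12 of the 23 promoters available for the hypoxia list (52.2%) and in 3001 of all 14239 (21.1%), and in 61 of the 232 promoters of genes called at least 2-fold higher (26.3%). The windows of the 2 members with the largest rise are shown with the motif in capitals, STC2 at chr5:173328415-173328664 on the reverse strand and ANGPTL4 at chr19:8363905-8364154 on the forward strand.
STC2: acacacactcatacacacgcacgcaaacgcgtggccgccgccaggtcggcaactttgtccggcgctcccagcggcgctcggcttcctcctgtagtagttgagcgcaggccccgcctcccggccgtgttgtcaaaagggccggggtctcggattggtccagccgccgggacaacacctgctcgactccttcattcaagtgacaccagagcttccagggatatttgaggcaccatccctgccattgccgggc
ANGPTL4: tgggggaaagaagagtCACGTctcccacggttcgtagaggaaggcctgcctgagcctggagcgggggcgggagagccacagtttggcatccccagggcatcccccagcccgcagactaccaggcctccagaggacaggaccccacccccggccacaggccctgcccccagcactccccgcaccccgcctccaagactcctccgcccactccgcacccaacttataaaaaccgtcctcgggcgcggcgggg
In ANGPTL4 the motif begins at position -234 on the opposite strand. In STC2 the letters ACGTG do not occur in the window, but GCGTG, which was not counted, does.

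Immediate early transcription factors rose broadly at 24 h. Of 25 AP-1, EGR and KLF genes 18 were higher and 0 lower, with a median of 0.65. JUN went from 9.33 and 9.41 to 11.40 and 11.37, a rise of 2.02 ± 0.09 (limma adjusted p = 1.68e-06), and FOS from 9.22 and 9.37 to 11.16 on both arrays. KLF4 rose by 1.58, JUND by 1.46, EGR1 by 1.38 and NR4A2 by 1.33. FOSL1 (-0.27), KLF5 (0.00) and IER3 (0.00) were not called. Feedback inhibitors of MAP kinases, which these pathways induce, had 10 of 19 higher and 0 lower (median 0.38). DUSP1, a phosphatase of p38 and JNK, rose by 2.22 ± 0.11, from 9.45 and 9.52 to 11.64 and 11.78. DUSP10 rose by 1.12, DUSP14 by 0.96 and DUSP5 by 0.89, and ERRFI1, an inhibitor of the EGF receptor, by 0.79.

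Ligands of the EGF receptor moved in opposite directions. HBEGF went from 8.02 and 8.34 to 10.80 and 11.18, a rise of 2.81 ± 0.17 (limma adjusted p = 1.06e-05). EREG (epiregulin) went from 11.37 and 11.40 to 9.79 and 10.00, a change of -1.49 ± 0.11, and the ErbB4 ligand NRG4 had a change of -1.47. The receptor gene EGFR was at -0.02 ± 0.08 and not called, ERBB3 rose by 0.76 and the receptor's negative regulator LRIG1 by 1.12. In all 3 of 18 members were higher (6 with arrays shifted to one median, 5 after cyclic loess) and 4 lower. These shares, 16.7% and 22.2%, lay near the background of 13.6% and 20.1%.

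Of 35 inflammatory chemokines, cytokines and NF-κB targets 7 were higher and 10 lower (shares near the background of 13.6% and 20.1%), with 2 higher when COH29 replicate 2 was left out and 4 when either control array was, or with the 4 arrays alone. CXCL1, a neutrophil chemokine gene, went from 10.80 and 10.86 to 7.97 and 8.33, a change of -2.68 ± 0.13 (limma adjusted p = 4.17e-06). CXCL2 (-0.94), CCL28 (-0.81), IL1B (-0.72) and CXCL8 (-0.64) were lower too, whereas IL6 (-0.21) and CXCL3 (0.12) were not called. NFKBIZ, an atypical IκB gene, rose by 0.87 and NFKB2 by 0.61. Genes stimulated by interferon were mostly lower, with 16 of 31 lower and 1 higher, IRF1 (median -0.28). IFI44L went from 9.50 and 9.51 to 7.62 and 7.83, a change of -1.78 ± 0.10. OAS3 (-0.88), HERC6 (-0.82), IFIT3 (-0.79), OAS2 (-0.74) and IFIT1 (-0.67) were lower, and ISG15 (0.13) was not called. The IRF1 call was lost without COH29 replicate 2 (limma adjusted p = 0.055) or control replicate 1 (0.062).

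Among matrix genes, the hyaluronan synthase gene HAS2 went from 8.84 and 8.48 to 6.03 and 6.34, a change of -2.47 ± 0.14 (limma adjusted p = 6.9e-06). HMMR, a hyaluronan receptor gene that also acts at the mitotic spindle, had a change of -1.04. The matricellular genes CCN2 (CTGF) and CCN1 (CYR61) rose by 2.18 and 1.44, and PLAUR, the urokinase receptor gene, by 0.83. Of 31 matrix and protease genes 9 were higher and 5 lower (3 lower without COH29 replicate 1). Of 25 integrins 2 were higher (1 without COH29 replicate 2 or either control array, 4 with arrays shifted to one median) and 3 lower, with ITGB6 at -0.83, and of 16 basal keratin and desmosome genes 5 were higher (2 without COH29 replicate 1 or control replicate 2) and 3 lower, with KRT16 at 0.59 and DSC2 at -0.50. Of 31 serpins 2 were higher, SERPINI1 and SERPINE2 (0.54), and 1 lower, SERPINB5 (-0.61). SERPINE2 lost its call without COH29 replicate 1 (limma adjusted p = 0.0693), COH29 replicate 2 (0.0807) or control replicate 2 (0.104), and with arrays shifted to one median 5 serpins were higher. In the main fit both shares of the integrins and of the serpins lay below the background of 13.6% higher and 20.1% lower. The lower shares of the matrix list (16.1%) and the keratin and desmosome list (18.8%) lay near the background. Their higher shares, 29.0% and 31.2%, lay above it.

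Genes of mitosis were lower in most cases. In bulk samples fewer cells in mitosis and less RNA per cell cannot be told apart. All 14 measured mitotic kinesins were lower, against a background of 20.1%, with changes from -0.39 to -1.43 and a median of -0.93. KIF14, a motor of cytokinesis, went from 10.14 and 10.01 to 8.74 and 8.55 (-1.43 ± 0.12, limma adjusted p = 4.14e-05), and KIF18B, a regulator of spindle microtubules, had a change of -1.38. Of 31 mitotic kinases, cyclins and anaphase factors 23 were lower and 1 higher (median -0.67). PLK1, which drives entry into mitosis, went from 11.58 and 11.72 to 9.56 and 9.88, a change of -1.93 ± 0.12 (limma adjusted p = 9.7e-06). AURKA (-1.66), its activator BORA (-1.43), CCNB1 (-1.52), UBE2C (-1.43) and CCNF (-1.23) followed. MYBL2 (-0.08), FBXO5 (-0.17), CDC25C (-0.19) and PTTG1 (-0.25) were not called. LIN54, a DNA-binding subunit of complexes that drive or repress these genes, was the 1 higher member (0.55). FOXM1, a transcription factor of the same programme, had a change of -0.85 ± 0.09.

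At the kinetochore and spindle checkpoint 25 of 38 genes were lower and 2 higher (median -0.49). NDC80, whose product binds microtubules, went from 10.49 and 10.40 to 8.81 and 8.27, a change of -1.91 ± 0.16 (limma adjusted p = 3.76e-05). BUB1B (-1.69), CENPL (-1.18), SPC24 (-1.18), BUB1 (-1.15) and CENPF (-1.15) were lower, BUB3 (-0.11) was not called, and CENPQ (0.48) and MIS12 (0.45) were higher. Of 28 centrosome and spindle pole genes 20 were lower and 1 higher (median -0.52), with ASPM at -1.45, PRC1 at -1.13 and CEP135 at -1.05. The 1 higher, CEP192 (0.37), lost its call without COH29 replicate 1 (limma adjusted p = 0.0734) or control replicate 2 (0.0855).

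Promoters of mitotic genes often hold the cell cycle homology region, TTTGAA, near a CCAAT box. On either strand TTTGAA was in 33 of the 95 promoters available for the mitotic lists (34.7%) against 1506 of all 14239 (10.6%), and CCAAT in 55 of 95 (57.9%) against 4904 (34.4%). Among all genes called at least 2-fold lower the shares were 65 of 328 (19.8%) and 131 of 328 (39.9%). The windows of PLK1, chr16:23678639-23678888, and CCNB1, chr5:69166900-69167149, both on the forward strand, are shown with both motifs in capitals, as those of the 2 genes with the largest fall in the list of mitotic kinases, cyclins and anaphase factors among those with a sequence.
PLK1: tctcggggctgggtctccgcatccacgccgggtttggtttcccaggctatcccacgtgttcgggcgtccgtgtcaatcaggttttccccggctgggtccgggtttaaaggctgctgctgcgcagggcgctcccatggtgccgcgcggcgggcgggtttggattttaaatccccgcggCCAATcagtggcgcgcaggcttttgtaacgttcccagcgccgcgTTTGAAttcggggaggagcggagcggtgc
CCNB1: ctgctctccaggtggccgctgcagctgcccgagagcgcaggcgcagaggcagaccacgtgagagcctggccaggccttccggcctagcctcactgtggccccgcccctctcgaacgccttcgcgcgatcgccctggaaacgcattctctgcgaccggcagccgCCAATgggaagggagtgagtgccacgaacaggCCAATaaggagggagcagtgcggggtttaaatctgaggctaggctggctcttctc
In PLK1 the TTTGAA begins at position -29 and the CCAAT at -73. In CCNB1 CCAAT begins at -87 and -55, and TTTGAA does not occur in the window.

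Genes that restrain and genes that drive G1 were both among the calls. Of 27 CDK inhibitors, pocket proteins and G1 cyclins 7 were higher and 12 lower (median -0.07). CDKN1A (p21) went from 9.26 and 9.39 to 10.81 and 11.08, a rise of 1.62 ± 0.13 (limma adjusted p = 2.95e-05), and CDKN2B (p15) rose by 1.32. CDK6 (-0.93) and CCND1 (-0.52) were lower. So were the pocket protein genes RB1 (-0.66), RBL1 (-0.70) and RBL2 (-0.48) and their repressor partners E2F4 (-0.87) and E2F5. The S phase cyclin gene CCNE2 (0.54) was higher, while E2F1 (-0.03) and CDK2 (-0.04) were not called.

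Histone genes split into a large group that fell and a small group that rose. Of 60 measured histone genes 34 were lower and 12 higher (median -0.58), and 15 fell and 7 rose at least 2-fold. H2BC3 went from 11.12 and 10.81 to 8.65 and 8.10, a change of -2.59 ± 0.17 (limma adjusted p = 1.31e-05). The linker histone genes H1-3 (-2.04) and H1-5 (-1.92) and the core genes H2BC14 (-1.93) and H2AC4 (-1.86) were lower. H1-5 was uneven with COH29, at 9.78 and 8.99, and so was H2AC4, at 8.81 and 8.05. The higher group was led by H2BC26, which went from 8.29 and 8.17 to 9.75 and 10.44 (1.86 ± 0.18), H2BC21 (1.84) and H3C10 (1.77). The variant linker genes H1-10 (0.64) and H1-6 (1.13), which the name pattern also took in, were in it. The histone paralogs are near-identical in places, so signal can be shared between their probe sets and these counts need not be separate measurements.

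**Figure D2:**
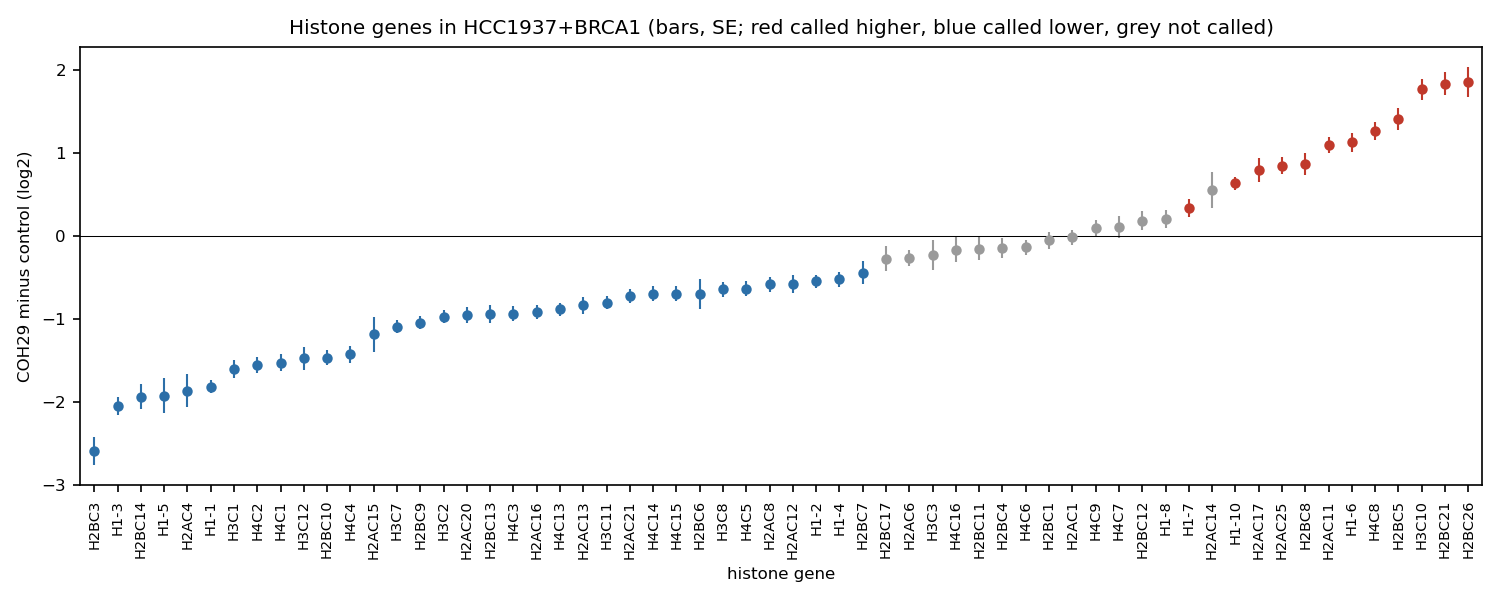
Change with COH29 in HCC1937+BRCA1 for 60 histone genes, ordered by size, on the log2 scale. Points are COH29 minus control over 2 arrays per group, bars the standard error of the fit, blue called lower (34), red called higher (12) and grey not called. H2BC3 is at -2.59 at one end and H2BC26 at 1.86 at the other.

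Of the 3 subunit genes of ribonucleotide reductase, the drug's target, 1 rose. RRM2B, the small subunit that p53 induces, went from 8.99 and 8.89 to 9.68 and 9.69, a rise of 0.75 ± 0.08 (limma adjusted p = 0.000164). RRM2, the small subunit of S phase, read 11.43 and 11.33 and then 11.43 and 11.25, so its groups overlapped (-0.04 ± 0.09, not called). RRM1, the large subunit, read 11.18 and 11.10 and then 10.93 and 10.75, a change of -0.30 ± 0.09 (limma adjusted p = 0.0336). That call was lost in 8 of 15 alternatives, among them leaving out COH29 replicate 2 (0.19), control replicate 1 (0.166) or control replicate 2 (0.0626) of the line, or either HCC1937 control array (0.0541). Of 16 genes of deoxynucleotide supply 1 was higher and 6 lower (median -0.19). DCTPP1, which hydrolyses dCTP, had a change of -0.78, CMPK2 of -0.54, DCTD of -0.50 and the thymidylate kinase gene DTYMK of -0.46, while thymidine kinase TK1 (0.03) and the synthase TYMS (-0.22) were not called.

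Of 45 replication genes 17 were lower and 4 higher (2 higher without COH29 replicate 2 or control replicate 1), with a median of -0.20. CDC7, the kinase that fires origins, went from 9.28 and 9.14 to 7.35 and 7.34, a change of -1.86 ± 0.17 (limma adjusted p = 6.68e-05). The polymerase subunits POLE2 (-1.40) and POLD3 (-1.01) and the helicase subunit GINS1 (-1.09) followed. The helicase loader CDC6 rose by 0.69 and ORC6 by 0.47. Among subunits of the MCM helicase ring, MCM3 (-0.57) was lower, while MCM4 (0.03), MCM5 (-0.01), MCM6 (-0.06) and MCM7 (-0.21) were not called. PCNA, the polymerase clamp gene, was at 0.10 and not called.

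BRCA1 itself read 10.50 and 10.43 on the control arrays and 10.25 and 10.07 with COH29, a change of -0.30 ± 0.10 (limma adjusted p = 0.0441), or -0.19 after cyclic loess. The call was lost in 8 of 15 alternatives, among them leaving out COH29 replicate 2 (0.226), control replicate 1 (0.189) or control replicate 2 (0.08) of the line, or either HCC1937 COH29 array (0.0527). On the HCC1937 control arrays the same probe set read 10.45 and 10.64, so it was not higher in the line with the added gene. The sources used here do not state whether this probe set detects the added gene, so it does not check the label. Of 27 homologous recombination genes 11 were lower and 0 higher (median -0.19), and the 11 became 6 without COH29 replicate 2 or control replicate 1 and 7 after cyclic loess. The resolvase gene GEN1 (-1.03), RAD50 (-0.73) and RAD51C (-0.70) and the helicase gene BLM (-0.54) had the largest falls kept under every alternative beside RAD51B (-0.57). PALB2, a partner of BRCA1, was at -0.18 and not called.

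In the Fanconi anemia pathway, which handles DNA crosslinks, 8 of 16 genes were lower and 0 higher (median -0.32). FANCB had a change of -1.19 ± 0.11 (limma adjusted p = 8.61e-05) and the ubiquitin-conjugating enzyme gene UBE2T one of -0.77. Among end joining, base excision and PARP genes 12 of 33 were lower and 3 higher. NEIL3, a glycosylase gene, went from 11.20 and 11.12 to 9.86 and 9.92 (-1.27 ± 0.09), LIG3 fell by 1.06 on the log2 scale, TP53BP1 by 1.01 and XRCC4 by 0.89. PARP1 (-0.15 ± 0.10) was not called. POLB rose by 0.56. In checkpoint signalling 14 of 23 were lower and 4 higher (median -0.40), with MDC1 at -0.99, TOPBP1, the activator of ATR, at -0.87 and ATM at -0.68 among the lower. CHEK1 (-0.11) was not called, and ATR (-0.44) lost its call without COH29 replicate 2 (limma adjusted p = 0.051) or control replicate 1 (0.064). RNF168 (0.67) and the histone variant gene H2AX (0.66) rose.

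Of 27 p53 targets 13 were higher and 6 lower (2 lower without control replicate 1), with a median of 0.29, and several of them are also targets of ATF4 or CHOP. The stress cytokine gene GDF15 read 7.36 and 8.03 on the control arrays and 9.96 and 10.09 with COH29, a rise of 2.33 ± 0.18 (limma adjusted p = 3.05e-05). PLK3 rose by 1.92, GADD45A by 1.57 and the death receptor gene TNFRSF10B by 1.27. FAS (-0.68), a death receptor gene, was lower, and BAX (-0.23), ZMAT3 (0.11) and CCNG1 (-0.07) were not called. Among 26 genes of the BCL2 family and death receptors 7 were higher and 8 lower. The BH3-only killers BCL2L11 (BIM, 1.80 ± 0.11) and PMAIP1 (NOXA, 1.24) rose, while BCL2L1 (-0.87), BCL2 (-0.62), BIRC2 (-1.37), an inhibitor of apoptosis, and CFLAR (-0.76, or -1.30 as the mean of its 2 probe sets) were lower. MCL1, which also protects cells, rose by 0.51. Of 8 NKG2D ligands 5 were higher (3 without COH29 replicate 2 or control replicate 2) and 1 lower. ULBP3 rose by 1.14 and ULBP2 by 0.83, MICA (0.07) and MICB (0.18) were not called, and RAET1E (-0.70) was lower.

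Of 26 genes of mRNA cleavage and polyadenylation 16 were lower and 1 higher (median -0.46). PCF11, which ends transcription at poly(A) sites, went from 10.08 and 9.84 to 7.85 and 7.51, a change of -2.28 ± 0.15 (limma adjusted p = 1.31e-05). RBBP6 had a change of -1.90 ± 0.08, from 10.62 and 10.56 to 8.65 and 8.72, and CSTF2 of -0.75 and NUDT21 of -0.67. The 1 higher, CLP1 (0.31), lost its call without COH29 replicate 2 (limma adjusted p = 0.164), control replicate 1 (0.129) or control replicate 2 (0.0747). CDK12, the kinase that supports long genes, was at -0.17 and not called, and CDK13 at -0.53 and called. Of 32 SR proteins, their kinases and transcription-linked CDKs 8 were higher (13 with arrays shifted to one median) and 7 lower (4 without COH29 replicate 1, 3 without control replicate 1), with CCNL1 (1.12), CDK7 (0.75) and CLK1 (0.64) higher and SRSF11 (-0.70) lower. The 8 and 7 are 25.0% and 21.9%, against 13.6% and 20.1% of all genes. Of 21 m6A and METTL genes 4 were higher and 6 lower (19.0% and 28.6%). The methyltransferase METTL3 had a change of -0.96, and its partner METTL14 one of -0.27 that was not called. The cofactors RBM15 (0.58) and WTAP (0.48) and the eraser ALKBH5 (0.55) rose.

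Nuclear pore genes had 20 of 27 lower and 0 higher (median -0.47), with the Y-complex members SEH1L (-0.92), NUP85 (-0.78) and NUP107 (-0.75) and the inner ring genes NUP35 (-0.84) and NUP205 (-0.83). In ribosome biogenesis 23 of 35 were lower and 0 higher (15 without COH29 replicate 1, 14 without control replicate 1), with a median of -0.39. UTP20 went from 9.95 and 9.82 to 8.11 and 8.12, a change of -1.77 ± 0.10 (limma adjusted p = 8.37e-06), and POLR1B, a subunit of RNA polymerase I, had one of -0.83. The abundant nucleolar proteins NPM1 (0.04), NCL (0.00) and FBL (-0.18) were not called. Of 61 cytosolic ribosomal protein genes 4 were lower and 0 higher (median -0.05). The lower share was 6.56%, below the background of 20.1%. The 4 ranged from 1 to 7 over the alternatives, with 1 without control replicate 1 and 2 without COH29 replicate 1 or control replicate 2, and RPL39L, a paralog of RPL39, had the largest change, -0.58. With control replicate 2 left out 3 were higher.

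Mitochondria have ribosomes of their own, built from proteins imported from the cytosol. Of 73 mitochondrial ribosomal protein genes 38 were lower and 0 higher (median -0.35). MRPL46 went from 9.52 and 9.62 to 8.12 and 8.23, a change of -1.39 ± 0.12 (limma adjusted p = 4.63e-05), MRPL44 had one of -1.30 and MRPL39 of -0.73. Of 79 respiratory chain genes 14 were lower and 3 higher (7 lower without COH29 replicate 2 or control replicate 1, and 1 higher without any 1 of COH29 replicate 1, COH29 replicate 2 or control replicate 1 of the line or either HCC1937 control array), with a median of -0.12, so the share that fell lay near the background of 20.1%. The median member of this list lay at percentile 85.6 of level, and of the top group of all genes by level 29.0% were lower. UQCR10 (-0.49) and NDUFS1 (-0.41) were among the lower. Of 36 proteasome genes 11 were lower and 0 higher, but 3, 4, 2 and 6 without COH29 replicate 1, COH29 replicate 2, control replicate 1 and control replicate 2. The immunoproteasome subunit PSMB8 (-0.64) and PSMD11 (-0.51) had the largest changes.

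Of 27 sterol and fatty acid genes 12 were higher and 3 lower (median 0.20). INSIG1, the sterol sensor, went from 8.60 on both control arrays to 10.13 and 10.40, a rise of 1.66 ± 0.10 (limma adjusted p = 1.04e-05). TM7SF2 rose by 1.24, LPIN1 by 1.02 and IDI1 by 0.83. The transcripts of the factors that drive them, SREBF1 (-0.05) and SREBF2 (-0.09), were not called, and the fatty acid elongase gene ELOVL6 had a change of -1.33. Autophagy and lysosome genes had 16 of 35 higher (median 0.24) and 5 lower (1 without COH29 replicate 2 or control replicate 1, 3 after either other scaling). MAP1LC3B, whose lipid-bound product marks autophagosomes, went from 8.23 and 8.53 to 10.97 on both arrays, a rise of 2.59 ± 0.10 (limma adjusted p = 1.34e-06). GABARAPL1 (1.35), the cholesterol exporter NPC1 (1.31), ULK1 (1.20), which starts autophagy, WIPI1 (1.09) and SQSTM1 (0.86) rose, while BECN1 (-0.10) and LAMP1 (0.15) were not called and ATG16L1 (-0.54) was lower.

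Of 17 metallothionein and zinc transport genes 10 were higher and 2 lower (median 0.65). Metallothioneins bind zinc and copper, and MT1X went from 9.87 and 10.11 to 11.94 and 11.70, a rise of 1.83 ± 0.11 (limma adjusted p = 9.47e-06). The zinc exporter SLC30A1 rose by 1.48, MT1G by 1.06, MT1F by 1.03 and MT2A by 0.94. The importers SLC39A10 (-0.66) and SLC39A1 (-0.42) were lower, and the zinc-sensing factor gene MTF1 (0.10) was not called. Metallothionein paralogs may share probe signal. In iron handling 3 of 17 were higher (5 with arrays shifted to one median, 6 after cyclic loess, 5 with trend and robust moderation) and 6 lower (3 with arrays shifted to one median, without COH29 replicate 1 or without control replicate 1). The transferrin receptor gene TFRC rose by 0.43 and the ferritin light chain gene FTL by 1.16, though the FTL control arrays were uneven at 11.21 and 10.58. The metalloreductases STEAP4 (-1.30), STEAP1 (-1.18) and STEAP2 (-1.10) were lower.

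In TGF-β and SMAD signalling 6 of 28 were higher and 11 lower (7 without COH29 replicate 2, 5 without control replicate 1). The ligand gene TGFB2 went from 9.35 and 9.38 to 7.87 and 7.93, a change of -1.46 ± 0.10 (limma adjusted p = 1.57e-05). ID3 (-1.20) and BMP4 (-1.08) were lower, and the decoy receptor gene BAMBI (1.22) and the corepressor SKI (0.98) were higher. Of 19 circadian clock genes 9 were higher and 6 lower (3 without COH29 replicate 2 or control replicate 2 or with arrays shifted to one median). NFIL3 rose by 1.60, PER1 by 1.32 and BHLHE40 by 1.19, while CLOCK (-1.13) and PER3 (-1.04) were lower. PER2 (0.16) and CRY1 (0.28) were not called.

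Large gene classes were counted as well. Of 480 numbered zinc finger genes 129 were lower and 69 higher (26.9% and 14.4%, against 20.1% and 13.6% of all genes). Of 173 small nucleolar RNA genes 30 were higher and 6 lower (median 0.18), but 11, 15 and 19 were higher without COH29 replicate 1, control replicate 2 and control replicate 1. The 6 lower became 2 without COH29 replicate 2. Olfactory receptors, which a breast line is not known to use, had a median of 0.13, near the 0.11 of the lowest group of genes by level, with 22 of 341 higher and 3 lower (6.45% and 0.88%). The 22 became 53 with arrays shifted to one median, 4 after cyclic loess, 2 without genes of low mean level, 8 when COH29 replicate 2 was left out, 13 when control replicate 2 was, and 36 with the replicate number as a block or without either HCC1937 COH29 array. The 3 became 10 after cyclic loess, 5 without control replicate 1 and 1 without any of the 3 other arrays of the line or with arrays shifted to one median, and 0 without genes of low mean level.

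**Figure D3:**
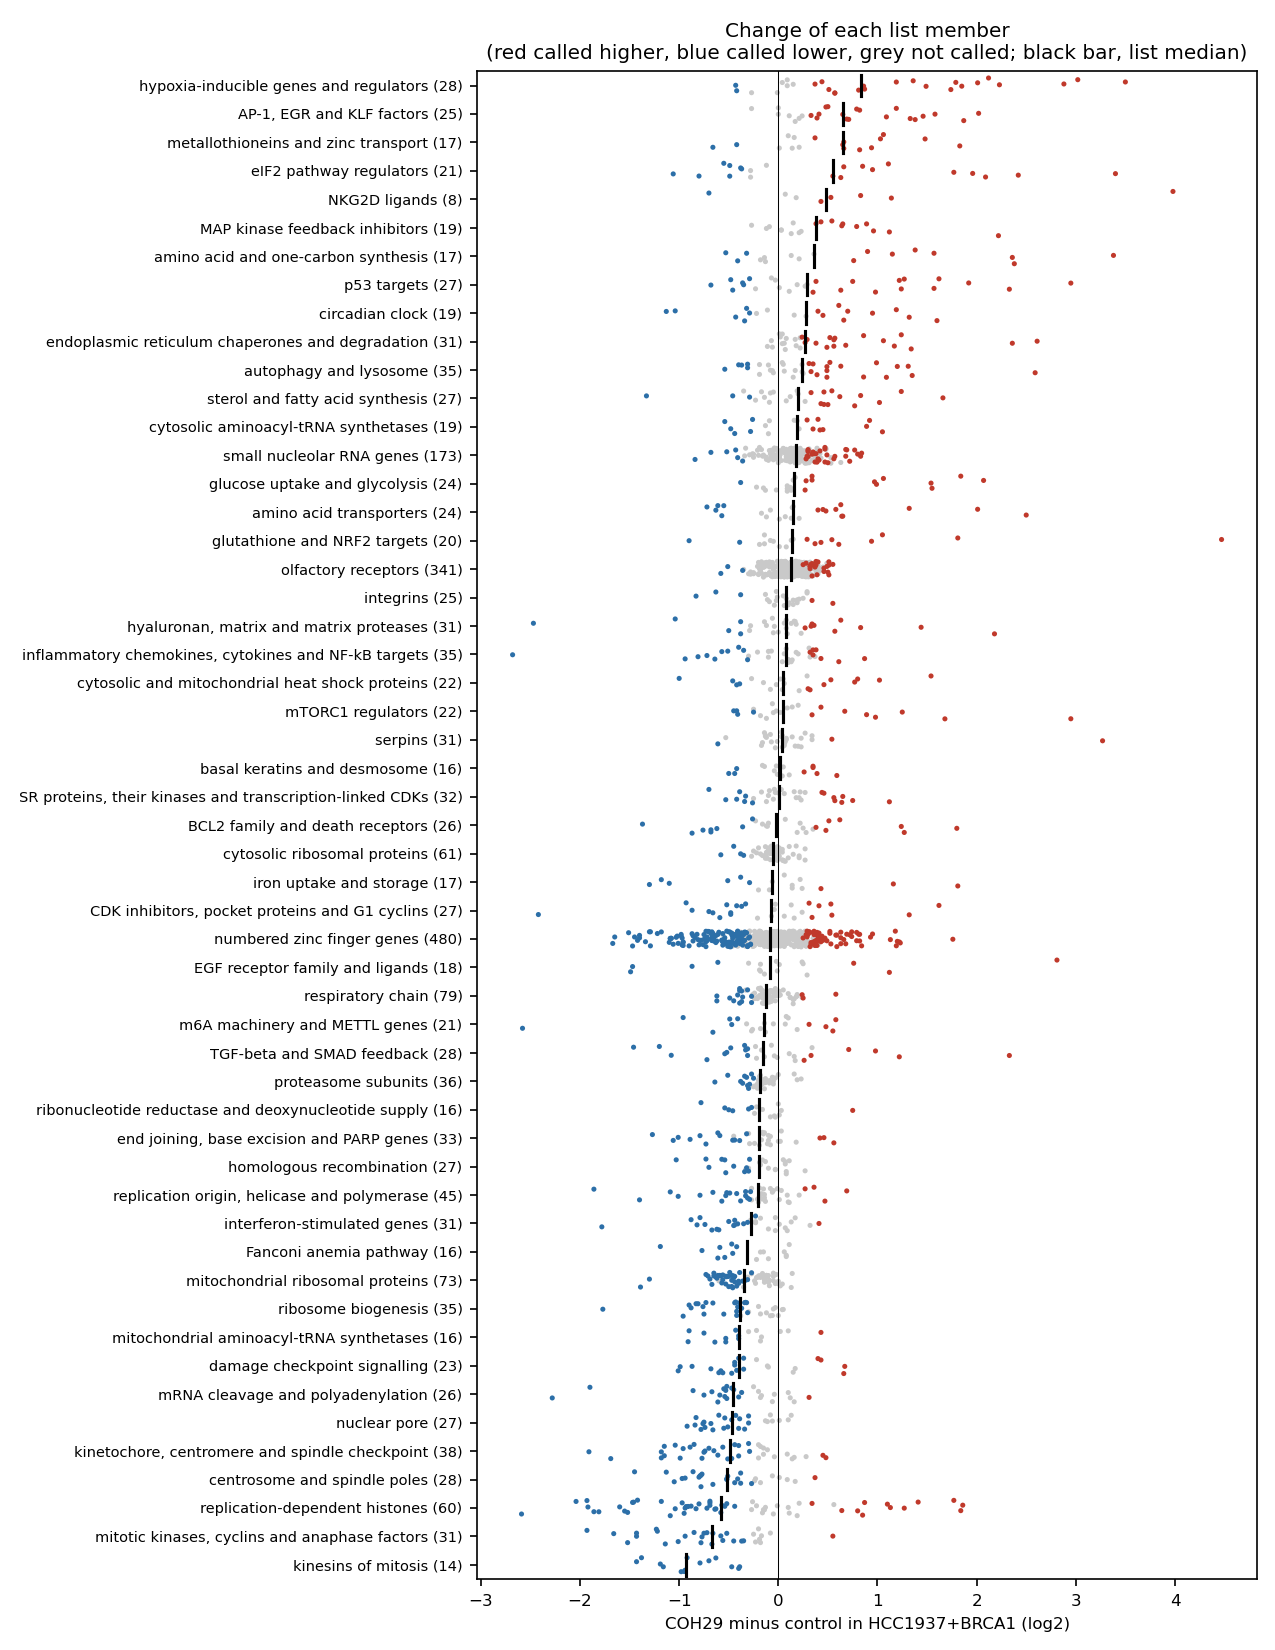
Change with COH29 in HCC1937+BRCA1 of every measured member of 53 gene lists, on the log2 scale, ordered by the list median (black bar), with the number of measured members in parentheses. Red points were called higher, blue lower and grey not called, and the histone row also holds variant histone genes. The hypoxia list has the highest median (0.83) and the mitotic kinesins the lowest (-0.93).

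The response was set beside that of HCC1937, whose controls are its own arrays. In HCC1937 4179 genes were called, and 3315 were called in the same direction in both lines, which is 53.5% of the calls in HCC1937+BRCA1 and 79.3% of those in HCC1937. Only 22 genes were called in opposite directions. The difference between the 2 responses, tested directly in limma as the change in HCC1937+BRCA1 minus that in HCC1937, was called for 176 genes (0.956% of those tested). Of these 148 were also called in HCC1937+BRCA1. The count was sensitive to single arrays: it ranged from 41 to 67 when 1 of the 8 arrays was left out, and 29 of the 176 were called in all 8 of those fits. The differences described next as called, from CHAC1 to B3GALT5-AS1, kept that call under every alternative that gave a value, with an adjusted p of at most 0.049.

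Among the stress genes, CHAC1 rose by 2.11 more in HCC1937+BRCA1 than in HCC1937 (4.47 against 2.37, limma adjusted p of the difference = 0.000438). Its HCC1937 arrays read 8.76 and 8.65 without the drug and 11.04 and 11.10 with it, so that HCC1937+BRCA1 was lower than HCC1937 without COH29 and higher with it. SESN2 rose by 1.46 more (2.95 against 1.49) and ASNS by 1.25 more (3.38 against 2.13), with the same crossing. STC2 rose by 1.25 more (3.50 against 2.25), but its arrays with COH29 read 10.99 and 11.09 in HCC1937, above the 10.75 and 10.82 of HCC1937+BRCA1, while its controls read 8.81 and 8.76 against 7.28. NUPR1 rose by 1.19 more (2.42 against 1.23), with HCC1937 at 10.10 and 10.13 and then 11.43 and 11.26. In both of these genes the lines lay farther apart without the drug than with it. ADM rose by 1.17 more and DUSP1 by 1.36 more, each from lower controls in HCC1937+BRCA1 (ADM 8.62 and 8.73 against 9.54 and 9.46, DUSP1 9.45 and 9.52 against 10.36 and 10.15). PFKFB4 rose by 1.11 more from controls at 7.20 and 7.09 against 7.16 and 7.23, so its difference lay in the arrays with COH29. ANGPTL4 and CCN2 rose by 1.20 and 1.35 more. KDM3A of the hypoxia list rose by 2.01 against 2.02 (difference -0.01, limma adjusted p = 0.978), with no called difference.

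Other genes had a larger fall in HCC1937+BRCA1, in most cases from controls that differed between the lines. HAS2 read 8.84 and 8.48 and then 6.03 and 6.34 in HCC1937+BRCA1, a change of -2.47, against 5.22 and 5.21 and then 5.06 and 5.09 in HCC1937, a change of -0.14 (limma adjusted p of the difference = 0.00228). All 4 HCC1937 arrays of HAS2 lay within 2.46 to 6.25, the span of the lowest group of genes by level. They also lay below every array of HCC1937+BRCA1. Whether the low level limited the fall was not tested. CD180, a Toll-like receptor family gene, had changes of -1.79 and -0.06, with HCC1937 controls likewise low at 4.59 and 4.70 against 6.68 and 6.75. EREG had changes of -1.49 and -0.07 from controls at 11.37 and 11.40 against 11.20 and 10.96. CXCL1 had changes of -2.68 and -1.04, and TRIM31 of -1.97 and -0.45, with TRIM31 higher in HCC1937 throughout (11.51 and 11.33 without the drug, 10.98 and 10.95 with it). In the other direction, the linker histone variant gene H1-6 rose by 1.13 in HCC1937+BRCA1 and had a change of -1.06 in HCC1937 (difference 2.20, limma adjusted p = 0.00228). B3GALT5-AS1, an antisense transcript gene, had changes of 0.42 and -1.54, from controls at 5.48 and 5.75 against 8.01 and 8.17. The strand that its probes read was not checked here, so its signal and that of the sense gene cannot be told apart.

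The mitotic, nuclear pore, DNA repair and ribosome lists held no called difference between the lines. Their medians side by side were -0.93 and -0.83 for kinesins, -0.67 and -0.46 for mitotic kinases and cyclins, -0.47 and -0.31 for the nuclear pore, -0.19 and -0.03 for homologous recombination and -0.35 and -0.24 for mitochondrial ribosomal proteins, in HCC1937+BRCA1 and HCC1937. A call in 1 line and none in the other is not a difference between them. PLK1 had a difference of -0.18 (limma adjusted p = 0.721), CDKN1A of 0.21 (0.691), SERPINI1 of -0.21 (0.672), METTL4 of -0.30 (0.372), PCF11 of -0.20 (0.757) and RBBP6 of 0.35 (0.246), and such p-values do not show that the lines act alike. GDF15 rose by 2.33 and 2.43, with a difference of -0.10 (limma adjusted p = 0.926).

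**Figure D4:**
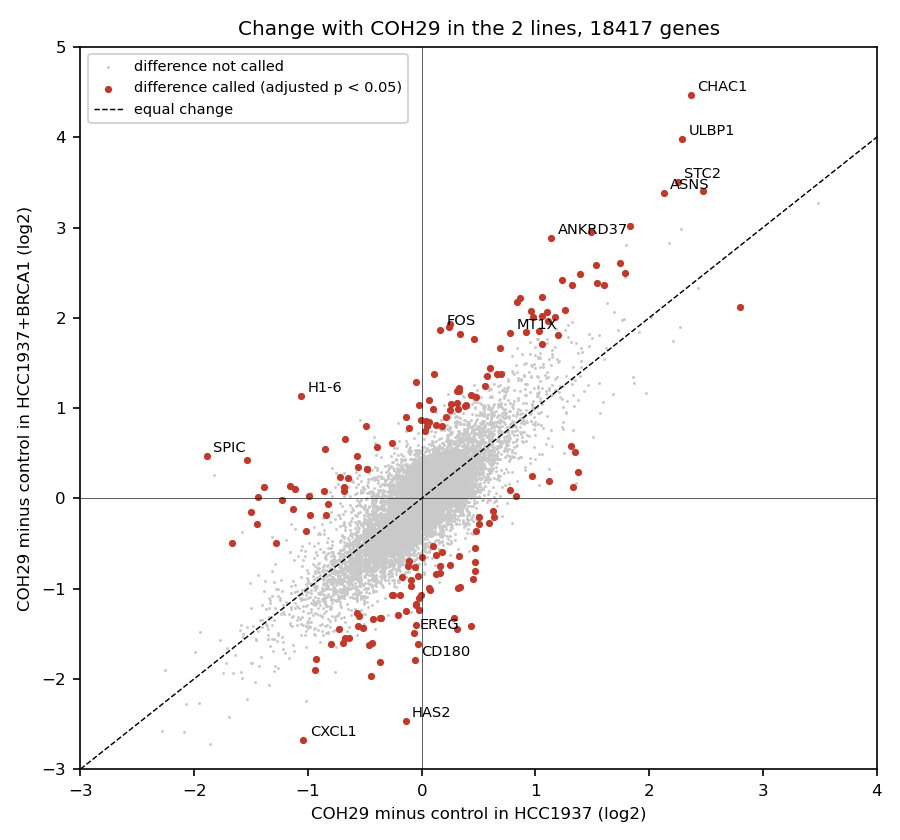
Change with COH29 in HCC1937 (x axis) and in HCC1937+BRCA1 (y axis) for 18417 genes, both as log2 COH29 minus control over 2 arrays per group. The dashed line marks equal change, and red points are the 176 genes whose difference was called. CHAC1 lies at 2.37 and 4.47 and HAS2 at -0.14 and -2.47.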

How the data were processed

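RNA of 8 samples was hybridised to Affymetrix arrays, and the submitters' processing notes name RMA and Partek, without versions. The values are log2 intensities as deposited by the authors, for 33297 probe sets per array, and they were not normalised again. A genome build for the array annotation is not stated. The depth of an array is not a read count, and 2 arrays per group limit the precision. Of the probe sets 19460 had 1 gene, 1754 several and 12083 none in the platform annotation. Each of 18417 genes was read by 1 probe set, and where a gene had several (769 genes) by that of highest mean level on the 8 arrays.

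Groups were compared in limma 3.58.1 (R 4.3.3) with group means over all 8 arrays, which share one estimate of the spread, and Benjamini-Hochberg adjustment over all genes. Errors are standard errors of the fit. A called gene has an adjusted p under 0.05. The model was tested on simulated data of the same size. For HCC1937+BRCA1 it recovered 61.2% of 67 genes changed by 0.5 (log2) and 100% of those changed by 1 or 2, with 19 unchanged genes called. Far fewer genes were changed there than were called in the data, which makes the adjusted threshold stricter, so these shares need not hold for the data.

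The gene lists and markers were chosen with earlier results of these data known. Genes were named by rule: BRCA1, RRM1, RRM2, RRM2B and CDKN1A, the 20 largest rises and falls, up to 6 called members of each list with the largest change and up to 3 that go against its more frequent direction, a set of regulators, and the largest differences between the lines. Other genes in the text, among them most of those given as not called, were chosen after their values were seen. Numbers of higher and lower members stand beside the list median. The share of all genes called is the background. It is not matched for level, and of the 2 upper groups by level 33.7% and 29.0% were lower and 17.3% and 16.9% higher. Tables were handled with pandas 2.3.3 in Python 3.11.15 and drawn with matplotlib 3.10.9. The alternatives were a filter on low levels, shifting arrays to one median, cyclic loess, trend and robust moderation, the replicate number as a block, the 4 arrays of the line alone, averaging over probe sets, a minimum change and leaving out each array.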

Additional observations from a re-analysis of the deposited data

Results flagged for a closer look

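The difference of the 2 responses, COH29 effect in HCC1937+BRCA1 minus that in HCC1937 on the log2 scale, was called in limma for 53 of the genes that the naming rule chose. Of these, 42 were above 0 and 11 below, all 53 kept their direction under the 14 alternatives that gave a value, and 18 kept the call. Those 18 were CHAC1 (2.11), STC2 (1.25), ASNS (1.25), ANGPTL4 (1.20), SESN2 (1.46), NUPR1 (1.19), RHOB (1.09), ADM (1.17), PFKFB4 (1.11), DUSP1 (1.36), CCN2 (1.35), H1-6 (2.20), B3GALT5-AS1 (1.96), CXCL1 (-1.64), HAS2 (-2.33), TRIM31 (-1.52), EREG (-1.42) and CD180 (-1.73).

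The other 35 lost the call under at least 1 alternative. Among genes of the amino acid and unfolded protein responses they were ULBP1 (1.70), DDIT3 (0.93), TRIB3 (0.83), PPP1R15A (0.85), CTH (0.84), ALDH1L2 (1.04), PSAT1 (0.67), SLC7A11 (0.71), SLC1A4 (0.84), DNAJB9 (0.87), HERPUD1 (0.76) and the co-chaperone BAG3 (0.62). In hypoxia and glycolysis they were ANKRD37 (1.74), PFKFB3 (0.92), ENO2 (0.75) and NDRG1 (-0.68). In early signalling and inflammation they were FOS (1.71), EGR1 (1.27), JUN (0.95), CCN1 (0.84), NFKBIZ (0.88) and IFI44L (-0.86). In autophagy and metal binding they were MAP1LC3B (1.06), GABARAPL1 (0.78), MT1X (1.06), MT1F (1.05) and STEAP4 (-0.75). The remainder were H3C10 (1.30), PMAIP1 (0.68), CCNL1 (0.64), INSIG1 (0.97), ELOVL6 (-0.96), ZNF826P (-1.75), LINC00417 (-1.84) and SPIC (2.37). SPIC itself was not called in HCC1937+BRCA1, where its arrays read 3.67 and 3.92 without the drug and 4.62 and 3.92 with it. Groups of 2 arrays are too small to check for an array far from the others.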

How the results depend on the processing

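The call of 386 named genes kept its direction under all 15 alternatives that could be fitted, and 336 of them stayed called in each. Most of these genes were named for a large change in the main fit, so they do not stand for all calls. Of the 6195 calls, 5624 stayed in the same direction with arrays shifted to one median and 5161 after cyclic loess. With a minimum log2 change of 1 the 6195 calls became 675, with 285 higher and 390 lower. The 2498 genes called higher ranged from 1564 to 2659 when 1 array was left out, with 1564 without control replicate 1 and 1612 without COH29 replicate 2 of HCC1937+BRCA1. The difference between the lines, 176 genes, ranged from 41 to 67 when 1 array was left out, and came to 566 with trend and robust moderation, 351 without genes of low level and 74 with a minimum change of 1. The same replicate numbers in the labels are not stated to pair samples, and deviations of same-numbered arrays correlated with r = 0.26 in HCC1937+BRCA1 and 0.0367 in HCC1937. With the replicate number as a block 6742 genes were called in HCC1937+BRCA1 and 106 for the difference. The cause of these shifts was not tested. Fewer arrays also leave fewer degrees of freedom. In the simulated data 61.2% of the changes of 0.5 were recovered. Far fewer genes changed there than were called in the data, so that share need not hold here.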
